A study of Sus scrofa with 32 samples.

Results

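LBP and CD14 encode the pair of proteins that pick up endotoxin, the lipopolysaccharide of gram-negative bacteria, and carry it to its receptor. All array probes whose transcript identifier maps to either pig gene were taken: 1 probe for LBP (A_72_P236672, transcript NM_001128435) and 2 for CD14 (A_72_P050971 and A_72_P088666, transcript NM_001097445). They are 2 of 1904 gene symbols that could be named on the array, and 3 of its 43603 probes. The pair was chosen by its measured array signals in these samples, namely its levels over the days and the lower LBP signal in runts, so its levels and differences are given as descriptions, with no test. The tests concern the other genes of endotoxin sensing and the acute phase response, and the relation of LBP to CD14 among arrays of the same group.

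The samples were fetal pig livers taken on gestational days 37, 50, 70 and 110. At each day 4 control fetuses and 4 runts with intrauterine growth retardation were measured, 1 array each, for 8 groups and 32 arrays. All dams were gilts with 1 uterine horn and ovary removed, so controls and runts alike developed in a surgically crowded uterus, and no group came from an uncrowded one. Controls and runts were littermates, and the livers of a day came from 4 independent pregnancies. The values are Cy3 fluorescence intensities of single-colour Agilent arrays. A level is the log2 of a probe's signal minus that of the array's 75th percentile, so that 0 is the signal at that percentile and a step of 1 is a 2-fold difference. Levels of different probes are not set against each other.

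LBP is a plasma protein that hepatocytes make and secrete, and its synthesis rises in the acute phase response to infection and injury. It lifts lipopolysaccharide out of bacterial membranes and hands it to CD14, a protein that is anchored on monocytes and macrophages, among them the Kupffer cells of the liver, and also circulates in soluble form. CD14 passes it to the complex of TLR4 and LY96 (MD-2), whose adaptors, MYD88 among them, switch on NF-kappaB and the genes of inflammatory cytokines.

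The share of spots with a signal well above background was 51.3% to 69.4% per array, and the 75th percentile lay at 177 to 460 intensity units. Arrays of one group correlated with each other at 0.962 to 0.985, and precision is limited by having only 4 of them. All 3 probes of LBP and CD14 were well above background on all 32 arrays, and no spot was saturated. Arrays of days 37, 50, 70 and 110 sat at positions 1, 2, 3 and 4 of their slides, except for 1 day 50 runt that lay alone on a slide at position 1. An effect of day and one of position cannot be told apart. The tissue label was checked on hepatocyte markers (albumin, apolipoprotein A1, transferrin and others), and all 8 that were measured were well above background on every array of days 37 and 110. The erythroid markers, those of the blood-forming cells that fill the fetal liver, fell between days 37 and 110 in all 4 of 4 cases (median log2 difference -4.08 in controls and -4.57 in runts). Of all features 14.3% fell in controls and 12.2% in runts, by the limma test described below (adjusted p under 0.05 and at least 2-fold).

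LBP was low at day 37 and high near term in both kinds of fetus, and it climbed in an early step in controls and in a later step in runts. In controls at day 37 its level was -0.92, -1.74, -1.60 and -1.37 in replicates 1 to 4, a mean of -1.41 ± 0.36 (SD, n = 4). At day 50 the controls read 0.23, 0.30, -0.50 and 0.25, a mean of 0.07 ± 0.38. All 4 day 50 controls lay above all 4 day 37 controls, as was so for 9.84% of all features.

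At day 70 the control levels of LBP were 0.88, 1.57, 0.96 and 0.61, a mean of 1.00 ± 0.41. At day 110 they were 2.05, 1.23, 1.23 and 1.33, a mean of 1.46 ± 0.39. The day 70 controls lay above the day 50 controls without overlap (13.6% of features did), whereas the ranges at days 70 and 110 overlapped.

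In runts at day 37 LBP was -1.60, -2.74, -1.61 and -2.46, a mean of -2.10 ± 0.58. At day 50 the runts read -3.01, -2.90, -1.74 and -1.82, a mean of -2.37 ± 0.68, and these values overlapped those of day 37. Replicates 3 and 4 of the day 50 runts lay near the top of that overlap and replicates 1 and 2 were the lowest LBP values of all 32 arrays.

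The runt levels of LBP were -0.02, 0.91, -0.31 and 1.20 at day 70, a mean of 0.45 ± 0.72. At day 110 they were 0.56, 0.90, 1.08 and 2.21, a mean of 1.19 ± 0.72. Every day 70 runt lay above every day 50 runt (13.8% of features did so), and the ranges at days 70 and 110 overlapped. The replicate SD of LBP was 0.58 to 0.72 in the 4 runt groups and 0.36 to 0.41 in the 4 control groups, a difference in spread that was not tested.

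**Figure D1:**
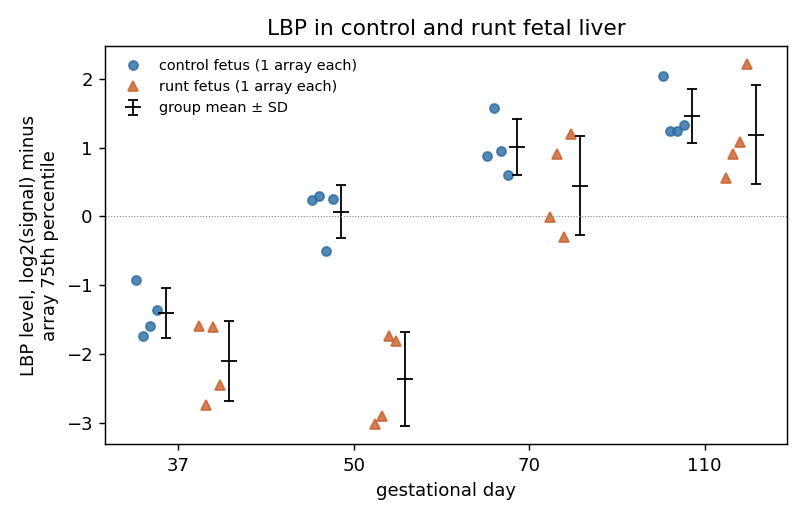
LBP level (log2 signal minus the array's 75th percentile) against gestational day, with 1 circle per control array, 1 triangle per runt array and bars for the group mean ± SD (n = 4). The day 50 controls sit between -0.50 and 0.30 and the day 50 runts between -3.01 and -1.74, with no overlap.

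From day 37 to day 110 LBP rose 7.30-fold in controls (log2 difference 2.87, SE 0.38) and 9.79-fold in runts (3.29, SE 0.38). SEs are those of a fit of 1 mean per group over all 32 arrays. The steps were unequal. The control difference was 1.47 from day 37 to 50 (2.78-fold), 0.94 from day 50 to 70 (1.91-fold) and 0.46 from day 70 to 110 (1.37-fold). In runts the same 3 steps were -0.26, 2.81 (7.03-fold) and 0.74 (1.67-fold), so the largest step came between days 50 and 70. The sign of the first runt step turned under 2 of 17 other ways of processing the data or choosing arrays, with a range of -0.48 to 0.22. Each gene's differences between days share the arrays of the days they have in common.

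Ranked by group mean, LBP was lowest in day 50 runts, followed by day 37 runts, day 37 controls, day 50 controls, day 70 runts, day 70 controls, day 110 runts and day 110 controls. Of the 7 pairs of neighbours in that order, only day 37 controls and day 50 controls did not overlap.

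CD14 followed another course. Its ranges overlapped between days 37 and 50, and it then climbed in a pair of large steps to term, in controls and runts alike. At probe A_72_P050971 the day 37 controls read 0.75, 1.15, 1.06 and 1.32, a mean of 1.07 ± 0.24 (SD, n = 4). The day 50 controls read 1.71, 1.20, 0.88 and 1.74, a mean of 1.38 ± 0.42, and overlapped them.

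The day 70 controls stood at 2.95, 3.60, 2.75 and 2.80, a mean of 3.03 ± 0.39. The day 110 controls stood at 5.35, 5.28, 5.14 and 5.52, a mean of 5.32 ± 0.16. Each of these groups lay wholly above the one before it (from day 70 to 110, 12.1% of features did in controls and 12.6% in runts), and the spread at day 110 was the smallest of the 4 control groups.

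The runt values of CD14 ran close to these. They were 1.29, 0.88, 1.15 and 1.28 at day 37 (mean 1.15 ± 0.19) and 1.61, 0.89, 1.17 and 0.62 at day 50 (mean 1.07 ± 0.42). They were 3.16, 3.33, 2.48 and 2.55 at day 70 (mean 2.88 ± 0.43) and 5.26, 5.58, 5.54 and 5.60 at day 110 (mean 5.49 ± 0.16). In the order of group means the 8 groups fell into 3 tiers without overlap between them: all groups of days 37 and 50, then both groups of day 70, then both groups of day 110. Within a tier all neighbouring groups overlapped.

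From day 37 to day 110 CD14 rose 19.1-fold in controls (log2 difference 4.25, SE 0.23) and 20.3-fold in runts (4.34, SE 0.23). The control steps were 0.31 from day 37 to 50, 1.64 from day 50 to 70 (3.13-fold) and 2.30 from day 70 to 110 (4.91-fold). The runt steps were -0.08, 1.81 (3.50-fold) and 2.61 (6.11-fold). The signs of the small first steps were not stable, with ranges of -0.01 to 0.48 in controls and -0.59 to 0.14 in runts over 18 other settings.

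The other CD14 probe, A_72_P088666, showed the same course with larger differences. Its control means were -2.29 ± 0.12, -2.06 ± 0.32, 0.16 ± 0.54 and 2.70 ± 0.09 at days 37, 50, 70 and 110. Its runt means were -2.34 ± 0.18, -2.52 ± 0.59, -0.03 ± 0.36 and 2.82 ± 0.11. The rise from day 37 to day 110 came to 31.7-fold in controls (4.99, SE 0.24) and 35.8-fold in runts (5.16, SE 0.24), against 19.1-fold and 20.3-fold at the first probe. The individual arrays ran from -3.21, in a day 50 runt, to 2.93, in a day 110 runt. Both probes put the day 70 and day 110 groups above the earlier ones without overlap.

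**Figure D2:**
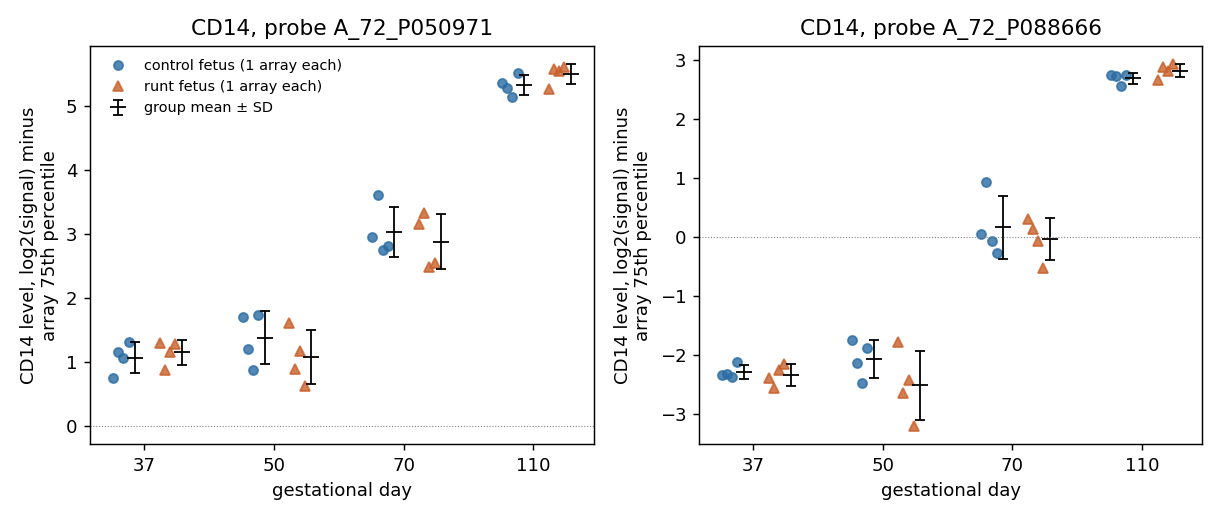
CD14 level (log2 signal minus the array's 75th percentile) against gestational day at its 2 probes, with 1 circle per control array, 1 triangle per runt array and bars for the group mean ± SD (n = 4). At both probes controls and runts overlap at every day, and the day 110 arrays sit highest.

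These day differences are read against a tissue that changed broadly. Of 28673 features tested with limma, 29.3% passed between days 37 and 110 in controls (Benjamini-Hochberg adjusted p under 0.05 and at least a 2-fold change), and 27.1% did in runts. All day 110 arrays lay above all day 37 arrays for 23.2% of features in controls and 22.7% in runts. In size, 143 features rose more than CD14 and 514 rose more than LBP in controls, and 119 and 322 did in runts. Because the values of these groups chose the pair, nothing is read from those shares or ranks.

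Markers of the cells that make these proteins were set beside the rise of the pair. The list of Kupffer cell and monocyte markers had 10 measured members, of which CD163 (1.13) and SIGLEC1 (3.01) passed as higher at day 110 than at day 37 in controls. CD86 passed as lower (-2.32), and neither of the other CD163 probes reached a 2-fold change. Their median log2 difference was 0.46 in controls and 0.61 in runts. The mean level over the list ran from 0.32 to 1.10 in day 37 controls and from 1.03 to 1.27 in day 110 controls. SIGLEC1 was above background on 1 of 4 control arrays at day 37, and CD68, MARCO, CSF1R and other listed macrophage markers matched no named probe. In whole liver, fewer cells of a type and less RNA per cell cannot be told apart.

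Of the 8 hepatocyte markers, 1 passed as higher in controls, ALB (albumin, 1.39, adjusted p = 0.0493), and the median difference was 0.09 in controls and 0.11 in runts. Granulocyte markers, from cells that also carry CD14, gave 0 of 4 calls by limma in either comparison, with 1 unadjusted p under 0.05 in controls and 0 in runts. Their median difference was 0.67 in controls and -0.72 in runts. Between these days they moved up and down. In controls 3 of 4 rose from day 50 to 70 (median 1.85), a step in which CD14 rose as well, and 3 of 4 fell from day 70 to 110 (median -1.92), when CD14 rose further. In runts 0 of 4 passed from day 50 to 70 (median 0.78, 0 at an unadjusted p under 0.05 by limma), and 4 of 4 fell from day 70 to 110 (median -2.47). Of all features, 2.83% passed as higher from day 50 to 70 in controls and 3.2% in runts. From day 70 to 110, 7.05% passed as lower in controls and 6.78% in runts. All 3 endothelial markers (PECAM1, CDH5 and NOS3) passed as higher at day 110 than at day 37 in controls and runts. Of all features 15% did so in controls and 14.9% in runts. Another probe of PECAM1 and one of CDH5 did not pass in either. The part of cell composition in the rise of LBP and CD14 was not tested.

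The comparison of runts with control littermates asks how the pair differs with growth retardation. LBP was lower in runts on average, and the gap was largest at day 50. Before scaling, the day 50 runt signals were 31.3, 48.1, 94.8 and 82.5 intensity units, and the control signals reached 458. The scaled levels given above for day 50, -0.50 to 0.30 in controls and -3.01 to -1.74 in runts, did not overlap. The runts were lower by 5.41-fold (log2 difference -2.44, SE 0.38).

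At the other days the log2 difference of LBP was -0.70 at day 37, -0.56 at day 70 and -0.27 at day 110 (each SE 0.38), and the ranges overlapped at all 3. Their mean was -0.51, against -2.44 at day 50. Over all 4 days the mean difference was -0.99 (SE 0.19), equal to a 1.99-fold lower level. At day 50, 19 of the 28673 features had a more negative difference than LBP, and among the 1596 features with a gene symbol LBP ranked 4 from the lowest. Ranges of controls and runts did not overlap, with runts lower, for 3.26% of features at day 50. The share that passed the limma test at day 50 in either direction was 0.0663%. Because the lower LBP signal in runts was among the values that chose the pair, nothing is read from these ranks or shares.

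The slides fell into 2 series of barcodes, slides 1 to 3 with 12 arrays and slides 4 to 9 with 20. At day 50 the runts were lower in LBP in both, by 1.69 (SE 0.59) on slides 1 to 3, where 1 runt faced 2 controls, and by 2.81 (SE 0.46) on slides 4 to 9. The difference was -1.91 (SE 0.50) with slide as a block in the fit. At days 70 and 110 the sign differed between the slide series: 0.42 and 0.32 on slides 1 to 3, and -1.03 and -0.78 on slides 4 to 9. The mean over 4 days was -0.40 on slides 1 to 3 and -1.34 on slides 4 to 9. On slides 1 to 3, 1 runt faced 2 controls at day 70, and 2 runts faced 1 control at day 110. At each of these days the sign was kept in 16 of 17 other settings, all but slides 1 to 3 alone.

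CD14 differed little between runts and controls. The log2 differences at probe A_72_P050971 were 0.08, -0.31, -0.14 and 0.17 at days 37, 50, 70 and 110 (each SE 0.23), with overlap at every day. The other probe gave -0.05, -0.45, -0.20 and 0.13 (each SE 0.24). The mean over the days was -0.05 (SE 0.11) and -0.14 (SE 0.12), respectively. At day 50, where LBP was lower in runts by 2.44, both CD14 differences were below 0 as well, but the CD14 levels of controls (0.88 to 1.74) and runts (0.62 to 1.61) overlapped over most of their span.

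**Figure D3:**
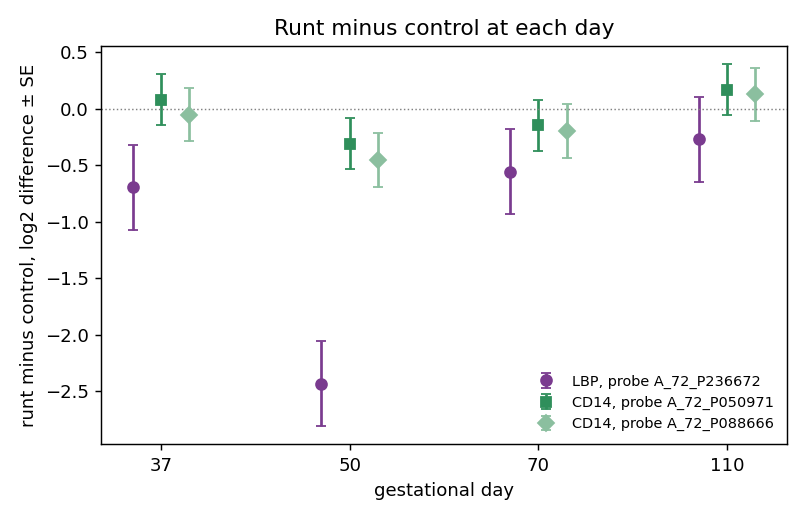
Runt minus control log2 difference at each gestational day for the LBP probe and both CD14 probes, with bars for the SE of the fit. LBP reaches -2.44 at day 50, and all CD14 differences lie between -0.45 and 0.17.

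Cell markers were set beside the day 50 gap in LBP. Of 8 hepatocyte markers 0 passed by limma between day 50 runts and controls, 2 had an unadjusted p under 0.05, and the median difference was 0.20. The mean level over the list ran from 7.63 to 8.49 in day 50 runts and from 7.84 to 8.43 in day 50 controls. ALB differed more: it stood at 4.85 ± 1.11 in runts and 7.57 ± 0.41 in controls, a difference of -2.73 (SE 0.59, adjusted p = 0.0663 by limma). Another ALB probe passed (-3.75, adjusted p = 0.011). At day 37 ALB was also lower in runts without passing (-2.54, adjusted p = 0.777), and on the mean of the 4 days it passed (-1.53, adjusted p = 0.0227). Kupffer cell markers were below 0 in 9 of 10 cases, with a median of -0.23, 0 calls and 2 unadjusted p under 0.05. Their mean level ran from 0.35 to 0.84 in runts and from 0.77 to 1.27 in controls. Of all features at day 50, 0.0663% passed by limma and 7.44% had an unadjusted p under 0.05. Differences were above 0 for 13304 of the 28673. The part of these markers in the LBP gap was not tested.

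Around the receptor itself LY96 passed and TLR4 did so at 1 of its 3 probes. TLR4, the signalling receptor, stood at -1.24 ± 0.42 in day 37 controls and -0.73 ± 0.17 in day 110 controls (SD, n = 4). The difference of 0.50 (SE 0.19, adjusted p = 0.0286 by limma) was under 2-fold and so did not pass, and in runts it was 0.73 (adjusted p = 0.00245), again under 2-fold. Another TLR4 probe, A_72_P419074, passed in controls (1.24, adjusted p = 0.0273) and in runts (1.26, adjusted p = 0.0263). The remaining one, A_72_P303724, stayed under 2-fold, as the first did (0.59 in controls, adjusted p = 0.00525, and 0.65 in runts, adjusted p = 0.00283).

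LY96, the co-receptor that binds the lipid part of endotoxin, rose 2.30-fold in controls (1.20, SE 0.17, adjusted p = 9.52e-07) and 2.27-fold in runts (1.18, adjusted p = 1.35e-06). Its control means were -0.42, -0.37, 0.01 and 0.78 at days 37, 50, 70 and 110, so that most of its rise, like that of CD14, came after day 50. PLTP, a lipid transfer protein of the same family as LBP, rose as well (1.23, SE 0.22, adjusted p = 4.4e-05 in controls).

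Of the 9 measured genes of endotoxin recognition besides the pair, 2 rose, 0 fell and 7 did not pass in controls, a share of 22.2% against 29.3% of all features and 36.8% of those with a symbol. In runts 3 rose, LY96, PLTP and LY86, a relative of LY96 (1.54, adjusted p = 0.000386). LY86 gave 0.98 in controls (adjusted p = 0.0162), just under 2-fold. The difference between the runt rise and the control rise passed by limma for 0 of these 9 genes, LY86 among them. For 0 of them was its unadjusted p under 0.05, and of all 28673 features 0 passed. All 9 differences were above 0 in both kinds of fetus, with medians of 0.89 and 0.73. Between runts and controls none of TLR4, LY96, MYD88 and IRAK4 passed at any day or on the mean of the days. At day 50 the differences were -0.30 for TLR4 and -0.18 for LY96 (adjusted p = 0.79 and 0.876 by limma).

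Below the receptor the adaptor MYD88 fell. It dropped by 1.98 on the log2 scale in controls from day 37 to day 110 (SE 0.32, adjusted p = 1.09e-05), and by 2.44 in runts (adjusted p = 4.92e-07). The control means were -0.69, -1.54, -1.79 and -2.67 over the 4 days. The kinase IRAK4 did not pass (-0.32, adjusted p = 0.124, in controls). TIRAP, the bridging adaptor, matched no named probe.

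The list of TLR signalling genes had 12 measured members, of which 1 rose and 3 fell in controls, with a median of -0.29. That share, 33.3%, is near the 29.3% of all features. Those that fell with MYD88 were the NF-kappaB activating kinase subunits CHUK (-1.26, adjusted p = 2.61e-05) and IKBKG (-1.08, adjusted p = 3.65e-05). JUN, a transcription factor of the AP-1 complex, rose (1.40, adjusted p = 0.00014). In runts JUN rose, and MYD88 and CHUK fell. Of the 2 inhibitors measured, NFKBIA, which holds NF-kappaB in the cytoplasm and is also its target gene, rose by 1.36 in controls (SE 0.13, adjusted p = 1.14e-09).

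Of 12 other pattern receptors measured, 6 passed as higher, 0 as lower and 6 did not pass in controls, with a median of 0.89, and 6 passed as higher in runts. A change of 2-fold is shown for 5 of the 6 in each, since TLR6 has only a bound. The share was thus 50% by the fitted values, or 41.7% without TLR6, in controls and in runts. It compares with 29.3% of all features in controls and 27.1% in runts, and with 36.8% and 36.3% of those with a symbol. TLR1, a partner of TLR2 in sensing bacterial lipoproteins, rose 2.86-fold (1.51, adjusted p = 2.64e-05). IFIH1, a sensor of viral RNA, rose 2.80-fold (1.49, adjusted p = 8e-07). TLR6, another TLR2 partner, was not above background on any control array at day 37 and was at least 1.36-fold higher at day 110 (adjusted p = 0.002). In runts it was above background on no day 37 array either, and the bound shows no rise. That bound, like the others given as "at least", sets the group mean against the weakest signal well above background.

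TLR7, a sensor of single-stranded RNA, was next in size (1.16, adjusted p = 0.04 in controls). Its control call was kept in only 8 of 18 other settings. TLR2 (1.02) and PGLYRP2, a liver enzyme that cuts bacterial cell wall (1.05), were the remaining rises.

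Among cytokines and other outputs of the pathway, 5 rose, 1 fell and 8 did not pass of 14 measured in controls, with a median of 0.78. The share that passed, 42.9%, compares with 29.3% of all features and 36.8% of those with a symbol. CCL2, the monocyte chemokine, rose 15.8-fold (3.98, SE 0.32, adjusted p = 5.54e-11). CXCL10, an interferon-induced chemokine, rose 11.2-fold (3.48, adjusted p = 9.15e-08). IL6, the main inducer of acute phase genes in hepatocytes, rose by 2.80 (adjusted p = 0.000122), and only 1 of 4 day 37 control arrays was above background. In runts, where no day 37 array was, IL6 was at least 2.06-fold higher at day 110 (adjusted p = 5.62e-05).

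CXCL2, a neutrophil chemokine, rose by 2.02 (adjusted p = 0.00364), from 1 of 4 arrays above background at day 37. CXCL8, another neutrophil chemokine, also passed (1.76, adjusted p = 0.0461), but its control call was kept in 7 of 18 other settings. PTGS2, the inducible cyclooxygenase, fell by 1.98 (adjusted p = 0.0145). In runts 6 rose and 1 fell, a share of 50% against 27.1% of all features and 36.3% of those with a symbol. TNF, the first cytokine of the endotoxin response, gave 0.26 (adjusted p = 0.541) in controls, and another TNF probe passed in runts (1.04, adjusted p = 0.0302).

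Of the acute phase proteins, the class to which LBP belongs, 4 passed as higher and 1 as lower among 8 measured in controls, with a median of 1.39. The share was 62.5%, or 50% without PIGR, which has only a bound. It compares with 29.3% of all features and 36.8% of those with a symbol. SAA3, a serum amyloid A, rose 30.9-fold in controls (4.95, SE 0.51, adjusted p = 7.06e-09) and 30.4-fold in runts (4.93, adjusted p = 7.52e-09). CRP, the C-reactive protein, rose by 1.97 (adjusted p = 3.94e-06) and HAMP, the iron hormone hepcidin, by 1.80 (adjusted p = 0.00339). PIGR, the receptor that carries antibodies across epithelia, was above background on no day 37 control array and was at least 1.51-fold higher at day 110 (adjusted p = 5.28e-07), so that 3 of the 4 are shown to have risen 2-fold. SERPINA3-2, a protease inhibitor, fell by 1.16 (adjusted p = 8.56e-05). Haptoglobin, HP, gave 0.98 in controls (adjusted p = 0.0132), just under 2-fold, and passed at another probe (1.18, adjusted p = 0.0102).

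The inducers of that class moved to both sides. JAK1, which relays the IL6 signal, rose by 1.52 (adjusted p = 5.06e-09), while JAK2 fell by 1.18 (adjusted p = 1.59e-06). STAT3, the transcription factor of the IL6 pathway, gave 1.10 (adjusted p = 0.00437) at its brightest probe, and 0.91 and -0.57 at its other probes, neither of which passed. Of 8 inducers 3 rose and 1 fell in controls, and 4 rose and 1 fell in runts. These shares, 50% and 62.5%, compare with 29.3% and 27.1% of all features, and with 36.8% and 36.3% of those with a symbol.

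**Figure D4:**
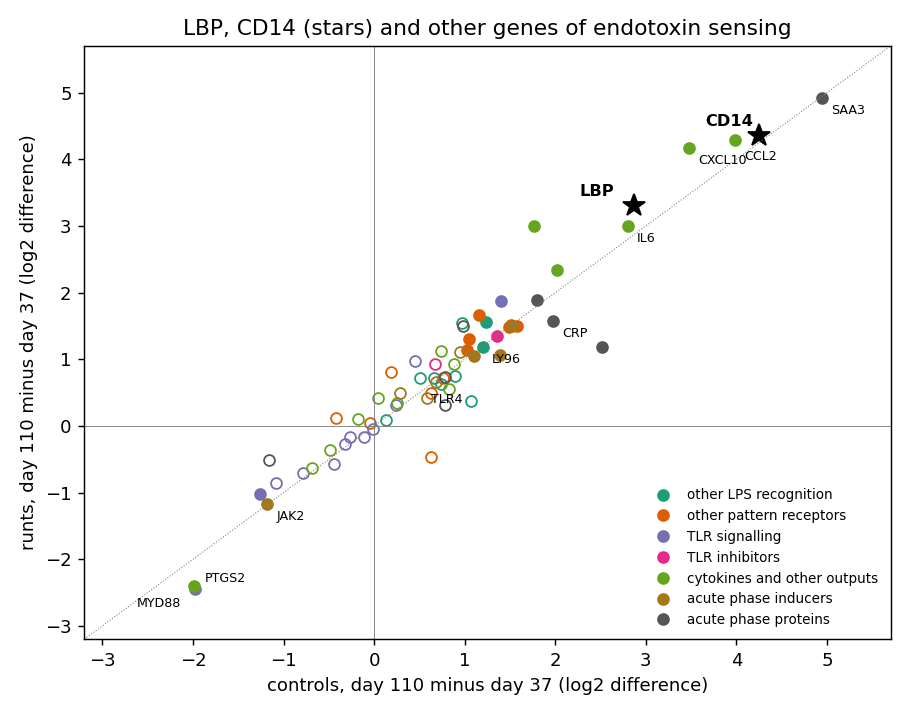
Log2 difference between days 110 and 37 in controls (horizontal) and runts (vertical) for LBP and CD14 (stars) and the 65 other measured genes of endotoxin sensing and the acute phase, coloured by list. Filled points passed the limma test in both kinds of fetus, open points did not, and the dotted line marks equal differences. Fitted values are plotted, also for genes not above background at day 37.

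Over all 7 lists, 22 of 65 genes passed as higher, 6 as lower and 37 did not pass in controls, and 26 passed as higher and 4 as lower in runts. These counts use fitted values. Without TLR6 and PIGR, whose bounds fall short of 2-fold in controls and runts, 20 rose in controls and 24 in runts, and 40% and 43.1% of the 65 genes passed. The median difference was 0.74 in controls and 0.73 in runts, or 0.69 and 0.72 with genes below background at day 37 set at their bounds. The median of all features was -0.02 and 0.04. The share that passed by the fitted values, 43.1% in controls and 46.2% in runts, compares with 29.3% and 27.1% of all features and with 36.8% and 36.3% of features with a gene symbol. Among all features 15% rose and 14.3% fell in controls, and 14.9% rose and 12.2% fell in runts. With a background correction by the normexp model in place of the scanner's, 16 genes rose and 2 fell in controls, and 14 rose and 2 fell in runts. Fewer features of any kind passed under that correction. In controls 2000 features rose and 2062 fell, against 4301 and 4101 with the values reported. In runts 1842 rose and 1799 fell, against 4260 and 3497. The 12 control calls lost in this way were TLR2 (0.78), TLR6 (0.17), TLR7 (0.32), CHUK (-0.79), IKBKG (-0.86), IL6 (0.38), CXCL2 (0.44), CXCL8 (0.38), PTGS2 (-0.89), STAT3 (0.69), JAK2 (-0.96) and PIGR (0.14), all with their sign kept. Leaving out 1 control array ended further calls besides those of TLR7 and CXCL8: TLR2 without day 37 replicate 2 or day 110 replicate 3, PTGS2 without day 37 replicate 4 (adjusted p = 0.0581), PGLYRP2 without day 110 replicate 1 or 3, STAT3 without day 110 replicate 1 and CHUK without day 110 replicate 4. The calls of controls and runts shared 26 genes, all in the same direction, which is 92.9% of the control calls and 86.7% of the runt calls.

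In single steps fewer of the 65 genes passed. In controls 2 passed as higher and 0 as lower from day 37 to 50, 2 and 0 from day 50 to 70, and 6 and 1 from day 70 to 110. The shares of all features that passed were 3.41%, 7.69% and 12.4%. In runts the counts were 1 and 4, 7 and 0, and 6 and 1, against 5.82%, 7.96% and 11.1% of all features. PIGR is among the 6 in both last steps, with a bound under 2-fold. The genes of these short counts are named here after their values were seen. In the first control step those that rose were SAA3 (1.97, adjusted p = 0.0188) and CCL2 (1.27, adjusted p = 0.0145), in the step in which the control LBP level rose by 1.47. From day 50 to 70 the control rises were CXCL10 (2.11) and PGLYRP1, a peptidoglycan binding protein (1.76), which then fell by 2.37 to day 110. In runts CCL2 rose from day 37 to 50 (1.10), and MYD88 (-1.68), IKBKB (-1.13), IRF3 (-1.03) and CD180 (-2.63) fell. IKBKB is a kinase that activates NF-kappaB, IRF3 a transcription factor of the interferon response, and CD180 a TLR4 relative that was above background on 2 of 4 day 50 runt arrays. From day 50 to 70, the step in which runt LBP rose by 2.81, the runt rises were CD180 (3.03), CXCL10 (3.01), CCL2 (1.57), IFIH1 (1.41), TLR10 (1.13), HP (1.06) and PGLYRP2 (1.02).

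Between runts and controls few features of any kind passed. By limma 0 of 65 genes passed at each single day, with 3, 10, 1 and 2 genes at an unadjusted p under 0.05 at days 37, 50, 70 and 110. Of all features 0%, 0.0663%, 0% and 0.014% passed at those days. At day 50 the 10 genes are 15.4% of the pathway, against 7.44% of all features at an unadjusted p under 0.05. At days 37, 70 and 110 the shares were 4.62%, 1.54% and 3.08%, against 2.49%, 1.82% and 4.42%. Of the 10 genes at day 50, 5 are among the 8 acute phase proteins. These 8 did not share a direction at day 50: 4 had a difference above 0, and the median was -0.13. On the mean of the 4 days 1 gene passed, SAA3, lower in runts by 1.28 (SE 0.26, adjusted p = 0.0249), against 0.244% of all features. Its runt minus control differences were -0.73, -2.005, -1.625 and -0.75 at days 37, 50, 70 and 110, so that it too was furthest apart at day 50.

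At day 50 SAA3 read -0.87, 0.12, -0.15 and -0.35 in controls and -2.33, -3.21, -1.33 and -2.39 in runts. All 4 runts lay below all 4 controls, as was so for 3.26% of features, but the difference did not pass by limma at that day (adjusted p = 0.147). The mean effect was lost with slide as a block (-1.48, adjusted p = 0.119) and within slides 1 to 3 (-1.08, adjusted p = 1) or slides 4 to 9 (-1.54, adjusted p = 0.125). It was also lost under the normexp correction (-0.87, adjusted p = 0.06) and without day 50 runt replicate 2 (-1.20, adjusted p = 0.0504). It was kept in 37 of 42 other settings, over which the adjusted p ran from 0.00658 to 1. The haptoglobin gene HP was lower in day 50 runts by 1.17 without passing (adjusted p = 0.204).

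The genes whose pattern was most like that of LBP over the 32 arrays, among 1578 with a symbol and no missing value, were MBL1, NR1I2, CD302, C3 and CFB. MBL1 encodes a mannose-binding lectin of plasma (Pearson r = 0.938). The others followed at 0.893 for the nuclear receptor NR1I2, 0.892 for the lectin receptor CD302, 0.888 for complement C3 and 0.878 for complement factor B. In day 50 runts C3 was lower by 1.78, MBL1 by 1.45, CFB by 0.65 and CD302 by 0.52, and since these genes were picked for likeness to LBP over the same arrays, these differences are not tested. NR1I2 was above background on 4 of 4 day 50 control arrays and 0 of 4 day 50 runt arrays, and on 0 of 4 arrays in each day 37 group. Its r thus includes 3 groups in which it was not measured above background.

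For CD14 the nearest genes were F10, coagulation factor X (r = 0.97), the glycosyltransferase MGAT2 (0.966), the cytokine TNFSF13 (0.964), the peptidase DPP4 (0.959) and the T cell receptor subunit CD3G (0.958). CD3G was above background on no array of days 37 and 50, on 2 of 4 in each day 70 group and on all at day 110. The median r was 0.16 with LBP and 0.19 with CD14, and 66 genes exceeded 0.9 with CD14 against 1 with LBP. All these points share libraries and the same 8 group means, so the values are descriptions.

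LBP and CD14 correlated with each other at r = 0.80 over the 32 arrays, which placed CD14 at rank 58 among genes like LBP and LBP at rank 239 among genes like CD14. Within groups there was little relation. After each group's mean was removed, Pearson's r was 0.19 (p = 0.382) and Spearman's rho 0.19 (p = 0.386) over 32 arrays (two-sided test with 100000 permutations within groups). The other CD14 probe gave r = 0.03 (p = 0.9) and rho = 0.14 (p = 0.512). Adjusted over these 2 relations, p was 0.764 and 0.9 for r, and 0.512 for both rho values. Without the 2 arrays farthest from the median LBP deviation, r was 0.26 (p = 0.245 by the same permutation test). With means removed within slide series r was 0.37 (p = 0.158 by permutation).

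**Figure D5:**
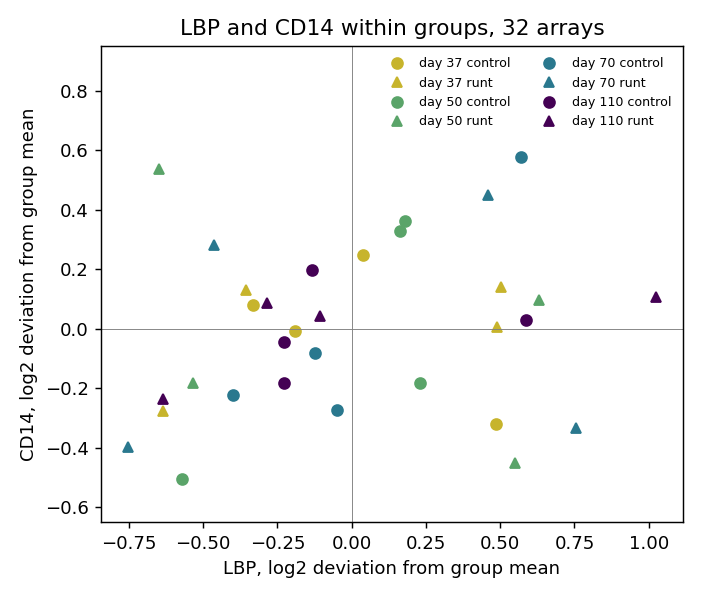
Deviation of CD14 (probe A_72_P050971) from its group mean against that of LBP, both in log2 units, for 32 arrays, coloured by gestational day, with circles for controls and triangles for runts. The points scatter without a clear slope (r = 0.19).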

How the data were processed

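Per the file headers, the deposited scanner files came from Agilent Feature Extraction 10.7.3.1 and hold background-subtracted fluorescence intensities. A second deposited file holds the authors' processed log2 values (Partek named in the submitters' processing notes, version and normalization not given in the sources used here), with column medians of 5.148 to 5.153, and served as an alternative. Outlier spots (564) were left out, log2 intensities were scaled to each array's 75th percentile, and spots of a probe were averaged. Probes were named through the RefSeq transcript in the array design, matched to Sscrofa11.1 (2683 of 43603 probes). Probes well above background on at least 3 of 4 arrays of a group were tested, and each symbol was represented by its brightest probe on average, giving 28673 features.

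The test was limma 3.58.1 in R 4.3.3, with a mean for each group, 32 arrays and 24 residual degrees of freedom, two-sided, and Benjamini-Hochberg adjustment. Calls between days also needed a 2-fold change. The fit was tested on simulated data. The files give median, not mean, spot signals, so the normexp alternative (offset 50) used medians. Spots with an outlier local background, at most 3.43% of an array, took the array's median background there, a step added after seeing the data. The other alternatives were quantile normalization, median centring, filters on dim probes, slide as a block, each slide series alone, replicate number as a block, only the groups compared, and leaving out each array.

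The members and gene lists were chosen with earlier results of these data known. Named genes were the pair, TLR4, LY96, MYD88, IRAK4, up to 4 rises and 4 falls per list among control calls, all runt calls up to 6, and the 5 genes most like each member; genes called only in runts or in single steps, TNF, HP and ALB were named after their values were seen. Labelling protocols write the days as PND, but the design text gives prenatal days. A gene that the naming rule picks is not reported here.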

Additional observations from a re-analysis of the deposited data

Results flagged for a closer look

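Among the 24 groups of 4 arrays tested over the 3 probes of LBP and CD14, 3 held an array far from the other 3 of its group, measured as the gap to its neighbour over the whole range. About 1 in 20 groups is picked out by chance. LBP read -0.50 in day 50 control replicate 3, below the 0.23 to 0.30 of the other 3 controls and still above every day 50 runt. LBP read 2.05 in day 110 control replicate 1, above the 1.23 to 1.33 of the others. CD14 at probe A_72_P088666 read 2.56 in day 110 control replicate 3, below the 2.73 to 2.76 of the others. Its level at the other CD14 probe, 5.14, was also the lowest of the 4.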

How the results depend on the processing

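The rises of LBP and CD14 from day 37 to 110, the day 50 gap in LBP and the mean runt differences kept their sign in every setting run. Values that moved by more than the replicate spread were as follows, and the cause was not tested. With normexp, LBP rose by 2.40 in controls and 2.53 in runts and differed by -1.69 at day 50, and 18, 16 and 0 pathway genes passed for controls, runts and the mean runt effect, sharing 16 of 28 and 16 of 30 calls with the values reported. On slides 1 to 3 alone, with 12 arrays, the LBP difference was -1.69 at day 50 and -0.40 on the mean, and 15 pathway genes passed in controls and 0 for runts. On slides 4 to 9 alone and with slide as a block, 0 passed for runts. The other CD14 probe gave 4.99 and 5.16. Leaving out 1 array gave LBP 2.67 to 3.03 (controls), 2.95 to 3.50 (runts), -2.65 to -2.22 (day 50) and -1.08 to -0.93 (mean), CD14 4.15 to 4.33, 4.25 to 4.42 and -0.10 to -0.0025, and counts of 25 to 29, 26 to 32 and 0 to 2. The correlation of deviations ran from 0.03 to 0.37. Of the single pathway genes named, 34 of 61 differences lost their call in at least 1 setting and 1 changed sign: IRAK4 in runts was 0.073 on slides 1 to 3 against -0.27. Median centring moved the median of all features by -0.15 and 0.18 in the first 2 control steps. Controls and runts share replicate numbers, which the labels do not tie to litters. Of 16 same-numbered pairs, 13 correlated above 0.1 in their deviations, and 10 of 16 runts correlated best with their own number. The mean r was 0.18 for same-numbered pairs and -0.06 for other pairs. Deviations from a group mean cancel within the group, so the negative second value follows from the positive first one. Same-numbered arrays were more alike than others, but the labels do not say why. Replicate number also went with slide series. Arrays of replicates 1 and 2 all sat on slides 4 to 9, and those of replicate 4 all on slides 1 to 3. Replicate 3 was split between the series. The part of slide series in this likeness was not tested. The main fit left pairing out, and the replicate block (consensus correlation 0.20) served as an alternative. With the replicate block, 2 genes passed for the mean runt effect in place of 1, and the other counts stayed within 1.5 times.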
